A study of Mus musculus with 6 samples.

Results

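The genes described here encode proteins that sperm use to reach, bind and fuse with the egg, together with enzymes of the acrosome, the secretory vesicle that caps the sperm head. They were taken from a list of 10 named genes, and 9 of these had probe sets that the array annotation assigned to that gene alone, 81 probe sets in all out of 188590 on the arrays. Hyal5, a sperm hyaluronidase, had none and was not analysed. The 9 are Izumo1, Spesp1, Spaca3 and Crisp2 for egg membrane binding and fusion, Zp3r and Spaca4 for binding to the zona pellucida, the coat of the egg, and Acr, Acrbp and Spam1 as acrosomal enzymes and the binding protein of one of them. They were listed by known role, with earlier results of these data known.

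RNA came from whole testes of wild-type (WT) mice and of mice lacking Ttll5, also called Stamp (KO), with 3 arrays in each group. Ttll5 belongs to the tubulin tyrosine ligase-like enzymes, which add amino acids to tubulin. All animals were on mixed stock of C57BL/6, 129/SvEv and FVB/N, and each cohort was made of littermates matched for age and sex; the sources used here do not give the age, the deleted part of the gene, or whether an array holds 1 animal or several. Expression was measured on exon arrays, on which each probe set reads a part of a transcript. A gene's value averages its probe sets on the log2 scale, and every difference below is KO minus WT on that scale. Array medians were 6.72 to 6.77, and Ttll5 itself fell by 1.62 (limma adjusted p = 4.3e-05), from 11.15 ± 0.015 in WT to 9.53 ± 0.043 in KO (mean ± SD, n = 3).

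Transcripts for these proteins are made in germ cells during sperm development, and many of the proteins are stored in the growing acrosome until it opens near the egg. Izumo1 is the sperm-surface immunoglobulin-domain protein that binds Juno on the egg. Spam1, a membrane-anchored hyaluronidase also known as PH-20, acts on the cumulus matrix around the egg, and acrosin, the product of Acr, is the serine protease of the acrosome. All 9 genes had values above the array medians in every array, from 9.72 at the lowest to 13.16 at the highest. Whole testis holds many cell types, and fewer cells of a type and less RNA per cell cannot be told apart in these values.

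None of the 9 genes changed past the threshold. By limma over all 15792 genes, 0 of 9 had an adjusted p under 0.05, where 0.0697% of all genes did, and their adjusted p-values ran from 0.77 to 0.997. At an unadjusted p under 0.05 there was 1 of 9, Izumo1, a gene with a lower KO value, where 6.05% of all genes passed that level in either direction and 3.44% passed it with lower values. Mean values were lower in KO for 7 of 9 and higher for 2, with a median difference of -0.051, beside 51.1% of all genes lower and a median of -0.0026 over all genes. KO and WT arrays did not overlap for 1 of 9, again Izumo1 with all KO below all WT, a pattern that 6.67% of all genes had. The 95% intervals held every KO level between 74.8% and 117% of its WT level.

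**Figure D1:**
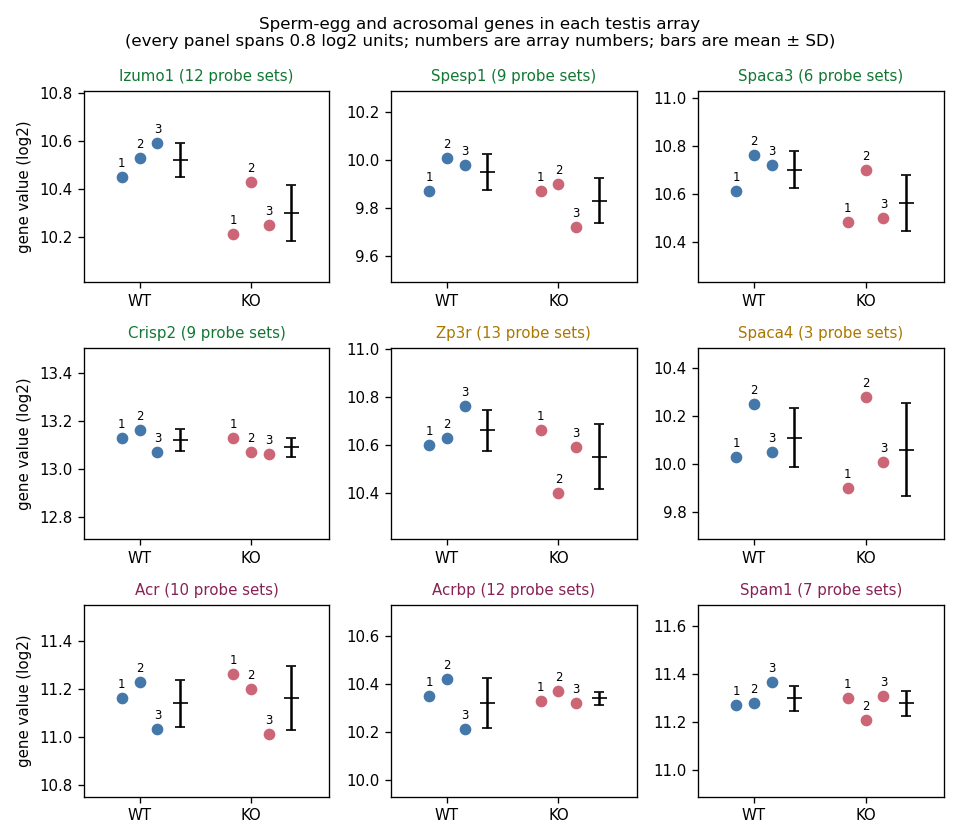
Gene values (log2) of the 9 genes in each of 3 WT and 3 KO arrays, with mean ± SD as bars; every panel spans the same width on the log2 scale. Only for Izumo1 do all KO arrays (10.21 to 10.43) lie below all WT arrays (10.45 to 10.59).

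The WT arrays read Izumo1 at 10.45, 10.53 and 10.59, and the KO arrays at 10.21, 10.43 and 10.25. The highest KO array, KO 2, lay just under the lowest WT array, WT 1, so the groups were apart by a small margin. The difference was -0.23 (SE 0.084, 95% interval -0.42 to -0.033, limma unadjusted p = 0.027, adjusted p = 0.77), or 85.5% of the WT level. All 12 probe sets of Izumo1 were lower in KO by their means, and for 4 of them all KO arrays lay below all WT arrays. Over all probe sets, 5.27% had that pattern. Among genes with 12 or more probe sets, 0.806% had every probe set lower. That share includes genes with more probe sets than Izumo1, and the share among genes with exactly 12 was not computed. Probe sets of 1 gene read the same transcripts on the same arrays and are not independent. The lowest, probe set 4433185, differed by -0.65, with WT arrays at 8.41, 8.82 and 9.37 and KO arrays at 7.86, 8.57 and 8.20, and the least, 4682894, by -0.025.

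Spaca3, a lysozyme-like protein of the acrosome that has been described as binding the egg membrane, measured 10.61, 10.76 and 10.72 in WT arrays, against 10.48, 10.70 and 10.50 in KO arrays. KO 2 lay within the WT range and the other KO arrays lay below it. The difference was -0.14 (95% interval -0.33 to 0.057, limma adjusted p = 0.88). All 6 of its probe sets were lower, by -0.094 to -0.17, where 2.99% of genes with 6 or more probe sets had every one lower. Genes with more probe sets than Spaca3 are included in that share too, and for those with 12 or more the share was only 0.806%. The share among genes with exactly 6 was not computed.

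Izumo1, Spaca3 and Spaca4 shared an order of the KO arrays, with KO 2 highest and KO 1 lowest. The share of all genes with that order was not computed. KO 2 was the highest KO array in 10 of 12 probe sets of Izumo1, in 5 of 6 of Spaca3 and in 3 of 3 of Spaca4, while it was the lowest of all 6 arrays in 8 of 13 probe sets of Zp3r. KO 2, KO 3 and WT 1 had the highest lower quartiles of all probe set values (4.66 to 4.67, against 4.59 to 4.64 in the others). Within those 3 arrays Izumo1 differed by -0.10 and Spaca3 by -0.015, and within the other 3 by -0.35 and -0.26. With a term for those 3 arrays in the fit over all 6, Izumo1 differed by -0.23 (limma unadjusted p = 0.042, adjusted p = 0.85). Spaca3 differed by -0.14 (limma adjusted p = 0.93). Both were close to their values without the term, while Zp3r moved from -0.11 to -0.066 and Spesp1 from -0.12 to -0.090. In this split the fit gives the mean of the differences within each set of 3 arrays, which were unlike for Izumo1 and Spaca3. Closeness to the values without the term therefore tells nothing about the split. The split was made after the data were seen. It left WT 1 as the only WT array on one side and KO 1 as the only KO array on the other. Its part in these differences was not tested.

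Spesp1, a protein of the equatorial segment, the region of the sperm head where fusion starts, had WT values of 9.87, 10.01 and 9.98 and KO values of 9.87, 9.90 and 9.72. WT 1 and KO 1 were level, and KO 3 was the lowest array. The difference was -0.12 (95% interval -0.30 to 0.063, limma adjusted p = 0.90). Its 9 probe sets were split more widely than those of Spaca3: 7 were lower and 2 higher, from -0.65 for probe set 5513366 to 0.29 for 5439963. The 2 ends were also among the dimmer ones, with WT means of 7.87 and 5.81, and the 95% intervals of both included 0. The median of the 9 differences was -0.059. With each array's median level over probe sets as the gene value, Spesp1 differed by -0.36 (limma unadjusted p = 0.045, adjusted p = 0.85); that level is the value of the single probe set 4785069 in every array. Without KO 3 the difference was -0.066.

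Crisp2, a cysteine-rich secretory protein found in the acrosome and along the outer dense fibres of the tail, read at nearly the same level in all arrays. Its WT arrays gave 13.13, 13.16 and 13.07 and its KO arrays 13.13, 13.07 and 13.06. The groups overlapped, and the difference was -0.035 (95% interval -0.19 to 0.12, limma adjusted p = 0.98), or -0.061 without WT 3 and -0.015 without WT 2. Its 9 probe sets lay between -0.10 (4496838) and 0.025 (5381124).

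Upstream sequence is shown for the 2 genes whose probe sets were all lower, Izumo1 and Spaca3, and for Acrbp, whose value hardly differed, because all of them hold the core letters of the cyclic AMP response element, a DNA site bound by CREM, a main activator of spermatid genes. RefSeq promoters of build GRCm38.p6 were found for 9 of the 10 listed genes, and not for Acr. The 250 bases before each start were searched on both strands for the full element TGACGTCA, which contains the core, and for the core TGACG. The full element was in 1 of the 9, Izumo1, and in 1.55% of 32817 promoters, and the core in 3 of the 9 and in 17.7% of promoters. Each run below has 60 bases, 5′ to 3′ on the strand of the gene, which is plus for all 3, with the matched letters in capitals. They are at chr7:45621689-45621748, where the match begins 96 bases before the start, at chr11:80858273-80858332, and at chr6:125049867-125049926, where it begins 18 bases before the start; Spaca3 has 2 listed starts, 62 and 88 bases from the match.
Izumo1: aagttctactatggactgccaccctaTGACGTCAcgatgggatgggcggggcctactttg
Spaca3: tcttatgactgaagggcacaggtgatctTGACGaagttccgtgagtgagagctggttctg
Acrbp: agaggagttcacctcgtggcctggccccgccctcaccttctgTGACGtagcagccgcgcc
The core was thus in 2 of the 7 genes with lower KO means and in Acrbp, whose KO value was 101% of WT, and not in this window of Spesp1, Crisp2, Zp3r, Spaca4, Spam1 or Hyal5. A match is a string of letters in the window, and binding was not measured.

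Of the zona-binding genes, Zp3r, also known as sp56, encodes a protein of the acrosomal matrix that was described as a receptor for the zona glycoprotein ZP3. The WT values were 10.60, 10.63 and 10.76, and those of the KO arrays 10.66, 10.40 and 10.59. KO 1 lay inside the WT range, KO 3 just under it and KO 2 lowest. The difference was -0.11 (95% interval -0.32 to 0.097, limma adjusted p = 0.93). Without KO 2 it was -0.036.

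The probe sets of Zp3r spread most widely of the 9 genes, with 12 of 13 lower and 1 higher. Probe set 4889944 differed by -0.53 and read 11.70, 11.45 and 11.79 in WT arrays, against 11.69, 10.41 and 11.25 in KO arrays, with KO 2 by far the lowest. Probe set 4355445 differed by 0.94 in the other direction, with WT arrays at 6.32, 7.89 and 6.60 and KO arrays at 7.32, 8.40 and 7.89. It was the dimmest of the 13, its groups overlapped, and its 95% interval included 0. The median of the 13 differences was -0.093. With each array's median level over probe sets as the gene value, Zp3r differed by -0.36 (limma adjusted p = 0.91). That level is the value of probe set 5407159, which itself differed by -0.071, in every array but KO 2, where it is the 10.41 of 4889944.

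Spaca4, a small lipid-anchored protein of the Ly6 family on the acrosomal membrane that takes part in zona binding, read 10.03, 10.25 and 10.05 in the WT group and 9.90, 10.28 and 10.01 in the KO group. KO 2 was the highest array of all and KO 1 the lowest, so the KO spread (SD 0.19) exceeded the difference of -0.051 (95% interval -0.31 to 0.21, limma adjusted p = 0.98). It was read by 3 probe sets, between -0.19 (4897155) and 0.044 (5492467). Spaca4 and Izumo1 both lie on chromosome 7.

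The acrosomal enzymes and Acrbp had KO values close to WT. WT arrays read Acr at 11.16, 11.23 and 11.03 and KO arrays at 11.26, 11.20 and 11.01, and both groups covered nearly the same range. Its difference was 0.015 (95% interval -0.20 to 0.23, limma adjusted p = 0.997), and its 10 probe sets lay between -0.11 (5049364) and 0.073 (4637832).

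Acrbp, the protein that binds the acrosin precursor and holds it in the acrosome, read 10.35, 10.42 and 10.21 in WT arrays, then 10.33, 10.37 and 10.32 in KO arrays, with every KO array inside the WT range. The difference was 0.020 (95% interval -0.16 to 0.20, limma adjusted p = 0.99), and its 12 probe sets ran from -0.31 (5433022) to 0.21 (5521329). A further 5 probe sets named both Acrbp and Ing4 and were left out of the gene value. These differed by 0.016 to 0.29, all higher in KO by their means, and for 2 of them all KO arrays lay above all WT arrays, a pattern that 4.97% of all probe sets had; which gene they read is not known.

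Spam1 values were 11.27, 11.28 and 11.37 for the WT group, 11.30, 11.21 and 11.31 for the KO group, and overlapped. The difference was -0.030 (95% interval -0.19 to 0.13, limma adjusted p = 0.98). Its 7 probe sets lay between -0.25 (5510544) and 0.11 (5037493). The lowest of them read 10.18, 10.11 and 10.33 in WT against 10.08, 9.75 and 10.04 in KO. All KO arrays thus lay below all WT arrays, a pattern that 5.27% of all probe sets had. Spam1, Acrbp and the unmeasured Hyal5 are all genes of chromosome 6. Spam1 and Hyal5 encode related enzymes, and whether a Spam1 probe set also reads Hyal5 was not tested.

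Over the 81 probe sets, 0 passed the threshold, where 0.0382% of all probe sets did (limma). At an unadjusted p under 0.05 there were 2, both of Izumo1 (4433185 and 4584318), where 5.36% of all probe sets passed. By their means 59 were lower and 22 higher. All KO arrays lay below all WT arrays in 9 of the 81, where 5.27% of all probe sets had that pattern. In 0 of the 81 they lay wholly above, where 4.97% of all probe sets did. Of the 9 probe sets with KO below, 4 belonged to Izumo1, 2 to Spesp1 and 1 each to Spaca3, Zp3r and Spam1. The probe sets shared by Acrbp and Ing4 are not in these counts.

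**Figure D2:**
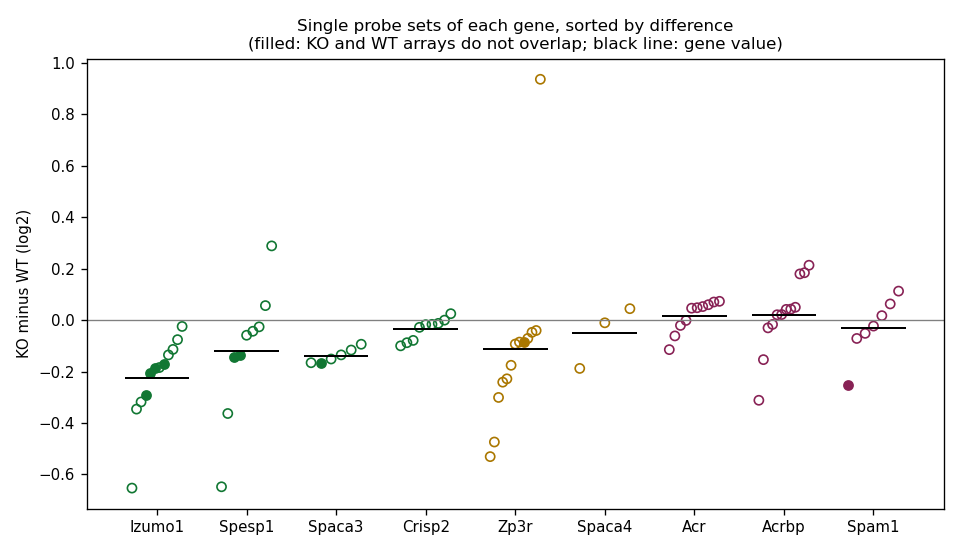
Difference KO minus WT (log2) of each of the 81 probe sets, by gene; filled points have KO and WT arrays that do not overlap, and black lines are the gene values. All points of Izumo1 and Spaca3 lie below 0, and a dim probe set of Zp3r stands at 0.94.

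By role, the median difference was -0.13 for the 4 fusion genes, -0.081 for the 2 zona-binding genes and 0.015 for the 3 of the enzyme group. With each gene centred on its mean over the 6 arrays, the fusion genes averaged 0.01, 0.11 and 0.08 in the WT arrays, against -0.09, 0.01 and -0.12 in the KO arrays. For the zona-binding genes these means were -0.03, 0.10 and 0.06 in WT, against -0.07, -0.01 and -0.05 in KO. In the enzyme group they were 0.00, 0.05 and -0.05 for WT, against 0.04, 0.00 and -0.04 for KO. WT 1 and KO 2 were level in the fusion group, and the 95% intervals of the single genes of all 3 roles overlapped, so no difference between roles was shown and none was tested.

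A further 41 sperm-egg and acrosomal genes were listed by role, also with earlier results of these data known, and 29 were measured. With limma over all genes 0 of the 29 passed the threshold, 23 had lower and 6 higher KO means, beside 51.1% of all genes lower, and the median difference was -0.081. All KO arrays lay below all WT arrays in 6 of the 29, beside 6.67% of all genes. At an unadjusted p under 0.05 there was 1, with a lower value, beside 3.44% of all genes.

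In the fusion list 8 of 14 were measured, 7 with lower and 1 with higher means and a median of -0.11. Cd46, a complement regulator that in the mouse is found on the inner acrosomal membrane, read 9.82, 10.09 and 9.80 in WT, against 9.66, 9.70 and 9.64 in KO, with no overlap. Its difference was -0.23 (95% interval -0.44 to -0.022, limma unadjusted p = 0.034, adjusted p = 0.79). Spaca1, an acrosomal membrane protein needed to shape the acrosome, read 10.55, 10.59 and 10.58 in WT, against 10.43, 10.52 and 10.36 in KO, also with no overlap, a difference of -0.14 (limma adjusted p = 0.86). All KO arrays lay below all WT arrays in 4 of the 8, Cd46 and Spaca1 among them, beside 6.67% of all genes.

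In the zona and cumulus list 10 of 12 were measured, 7 lower and 3 higher with a median of -0.020. The smallest unadjusted p-values there were those of Lypd4, a Ly6-family protein, with a difference of -0.13 (limma adjusted p = 0.91), and of Zpbp2, a zona pellucida binding protein of the acrosome, with -0.10 (adjusted p = 0.92). Both had overlapping groups.

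In the list of proteases, lysozyme-like and matrix proteins 11 of 15 were measured, 9 lower and 2 higher with a median of -0.081. Prss40 (Tesp2 in the annotation), a testis serine protease, differed by -0.14 (limma adjusted p = 0.85), and Prss37 (1700016G05Rik), a protease-like protein needed for sperm to pass into the oviduct, by -0.13 (adjusted p = 0.86). In both, all KO arrays lay below all WT arrays, for Prss40 at 9.38, 9.34 and 9.34 against 9.45, 9.59 and 9.46. That pattern was in 2 of the 11, beside 6.67% of all genes.

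**Figure D3:**
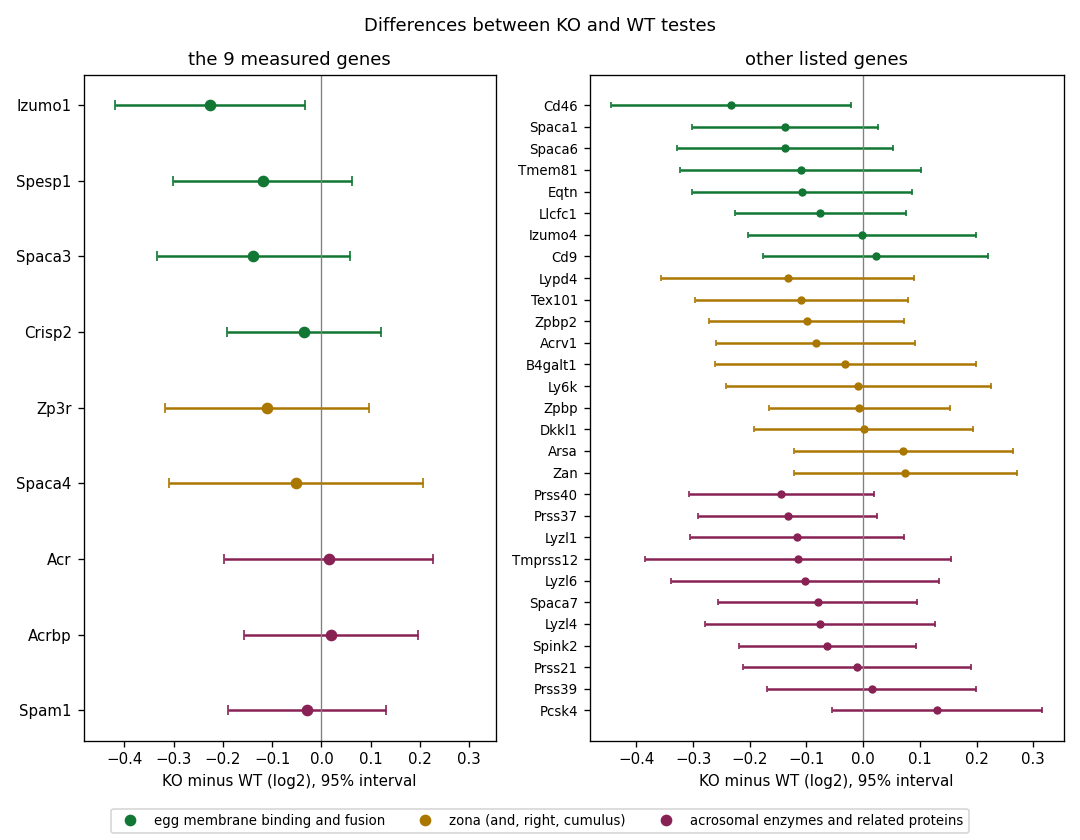
Difference KO minus WT (log2) with its 95% interval from limma for the 9 genes (left) and the 29 other measured genes of the 3 lists (right), coloured by role. The intervals of Izumo1 and Cd46 are the only ones that leave out 0, before adjustment for the number of genes tested.

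Markers of testis cell types give the setting of these values. Spermatid markers had lower KO means in 8 of 9 and a median of -0.095. Their mean level was 12.41, 12.48 and 12.49 in WT, against 12.40, 12.37 and 12.34 in KO. Every KO array was thus below every WT array, but KO 1 lay only just under WT 1. Among the single markers, all KO arrays lay below all WT arrays for Tnp1, Tnp2 and Akap4, a pattern that 6.67% of all genes had. The groups overlapped for the other spermatid markers. Spermatocyte markers were lower in 8 of 9 (median -0.056), those of spermatogonia in 5 of 7 (-0.072), those of Sertoli cells in 3 of 7 (0.016) and those of peritubular myoid cells in 1 of 5 (0.036). Leydig cell markers had higher KO means in 6 of 6 with a median of 0.31, and their mean level was 9.62, 9.91 and 9.95 in WT, against 10.15, 10.23 and 10.08 in KO. Macrophage markers had higher KO means in 5 of 6 (median 0.18), with list means of 5.73 to 5.91 in WT and 6.03 to 6.04 in KO. The macrophage marker with the largest difference, Cd14 (0.47), had a mean level below the lower quartile of every array.

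No marker of any list passed the threshold by limma. At an unadjusted p under 0.05, 3 of 6 Leydig cell, 3 of 6 macrophage and 2 of 8 epididymal markers had higher values and 1 of 9 spermatid markers, Tnp1, a lower one (-0.19), beside 6.05% of all genes in either direction and 3.44% lower. Of 8 measured markers of the epididymis, where Spam1 and relatives of Crisp2 are also made, 6 had mean levels below the lower quartile of every array. Cst11 and Gpx5, the 2 with an unadjusted limma p under 0.05, were among these 6. The list's median difference was 0.053. The part of these shifts in the values of the 9 genes was not tested.

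**Figure D4:**
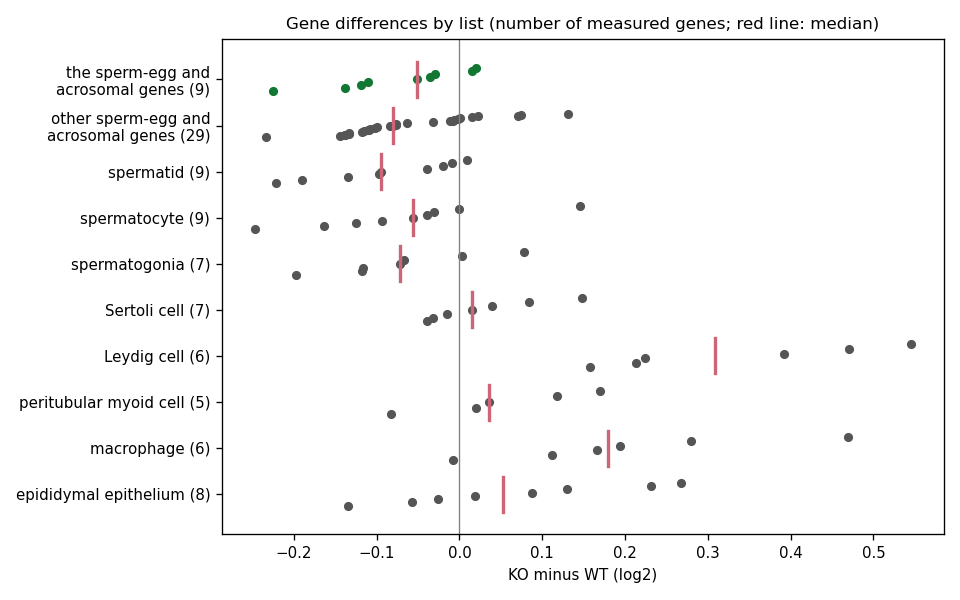
Difference KO minus WT (log2) of single genes in the 9 sperm-egg and acrosomal genes, the 29 other listed genes and the cell type marker lists, with the median of each as a red line. The median of the 9 genes (-0.051) lies between those of the spermatocyte list (-0.056) and the Sertoli cell list (0.016). The Leydig cell list (median 0.31) lies to the right of the 9 genes.

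The spread of the arrays set what could be called. With the standard errors of these 9 genes and the largest unadjusted p that passed over all genes (2.1e-05), a difference of 0.59 for Crisp2, of 0.73 for Izumo1 and of up to 0.98 for Spaca4 would have been needed. Both the standard errors and that p came from these same arrays, so these are not fixed limits of 3 arrays against 3. Smaller differences would not have been called here, and a p above the threshold does not show that KO and WT levels were equal.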

How the data were processed

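Total RNA of 6 testes samples was extracted with Trizol and hybridised to exon arrays as biotinylated cRNA, per the labels' protocols. The authors deposited log2 values for 188590 probe sets; RMA and Partek 6.5 are named in the submitters' processing notes, without role or order. RMA brings array distributions to one shape, which hides any shift common to most genes. Values were used as deposited. The platform annotation gave 1 symbol for 179163 probe sets, several for 1322 and none for 8105; only the first were averaged into 15792 gene values. Genes and probe sets were each tested with limma 3.58.1 (R 4.3.3; lmFit, eBayes, two-sided, no covariates), with Benjamini-Hochberg adjustment over the whole table at 0.05. Permuting 3 against 3 arrays exactly cannot go below p = 0.1. The code was tested on simulated arrays. The sources used here do not say whether arrays are separate animals, so p-values measure the spread between these arrays.

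The 9 genes and the lists were chosen with earlier results of these data known. All listed genes with probe sets were described; of the other lists, genes past the threshold or else the 2 with the smallest unadjusted p were named, and of probe sets the lowest and highest per gene. Symbols came from the annotation, older ones through RefSeq synonyms (GRCm38.p6). Alternatives covered gene summary, filters on dim probe sets or genes (40th percentile), array weights, moderation, normalization, the replicate block and leaving out each array; a term for the 3 arrays with the highest lower quartile was added after the data were seen. Same-numbered arrays had correlated deviations of -0.17, 0.072 and 0.18, so the numbers were not taken to pair them.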

Additional observations from a re-analysis of the deposited data

How the results depend on the processing

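Under all 16 alternatives 0 of the 9 genes, 0 of the 29 other listed genes and, in the 14 that refit probe sets, 0 of the 81 probe sets passed the threshold, and Ttll5 kept its call (-1.36 with the median over probe sets, -1.60 to -1.64 in the others). The median difference over the 9 genes ran from -0.018 with the median over probe sets to -0.093 without WT 1. With the replicate block it was -0.051 and Ttll5 differed by -1.62. Izumo1, Spesp1, Spaca3, Zp3r and Crisp2 had lower KO values in all 16. Izumo1 ran from -0.29 without KO 2 to -0.18 without KO 1. Its unadjusted limma p was under 0.05 in 11 of 16 (0.010 to 0.085, adjusted p = 0.59 to 0.9998). Most of the 11 were fits to the same 6 arrays. The unadjusted limma p was above 0.05 without WT 2 (0.063), WT 3 (0.085), KO 1 (0.084) or KO 3 (0.076), and with the median over probe sets (0.075). Small differences changed sign, and the cause was not tested. Spam1 stood at 0.017 with the median over probe sets. With 1 array left out Spam1 ran from -0.047 (without WT 1) to 0.00082 (without WT 3), Acr from -0.039 (without KO 1) to 0.090 (without KO 3), Acrbp from -0.037 (without WT 3) to 0.066 (without WT 2) and Spaca4 from -0.16 (without KO 2) to 0.030 (without KO 1). Spaca3 differed by -0.21 without KO 2 (unadjusted p = 0.044). Crisp2 ran from -0.061 (without WT 3) to -0.015 (without WT 2). Background was not measured here, and the dimmest probe sets of Spesp1 and Acrbp had mean levels of 5.95 and 6.21, under the array medians. The number of arrays limited the precision.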
